A study of Mus musculus with 6 samples.

Results

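Cytosolic ribosomal protein genes were examined in mouse CD8 T cells labelled as lacking NIK in T cells and in wild type cells. They were taken by symbol, as Rpl or Rps followed by a number and at most 1 further letter a, x or l, together with Rplp0, Rplp1, Rplp2 and Rpsa. The rule found 82 of the 49492 genes in the table, 50 of the large subunit and 32 of the small subunit. Of these, 76 are the standard set and 6 have symbols that end in l, which marks a second copy of another member. GENCODE calls 2 of those 6, Rpl6l and Rps4l, processed pseudogenes. The members lie on 19 chromosomes, 4 of them on the X chromosome. Rps3a1, Fau and Rack1 also encode ribosomal proteins but fall outside the rule.

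Each ribosome is built from ribosomal RNA and a fixed set of ribosomal proteins, so the cell makes these proteins in matched amounts. Their mRNAs are among the most abundant in a dividing cell and carry a terminal oligopyrimidine tract, a stretch of C and U at the very start of the mRNA. Through this tract the kinase complex mTORC1, acting in part by way of the protein LARP1, sets how strongly they are translated. T cells that have been stimulated through their receptor expand ribosome production before they divide. NIK, encoded by Map3k14, is the kinase of noncanonical NF-kB signalling.

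The KO group held 3 libraries (replicates 4, 5 and 6) labelled NIK-CD4Cre-OT-I, and the WT group held 3 libraries (replicates 1, 2 and 3) labelled Wild Type-OT-I. Both groups were on a C57/BL6 background and aged 6 to 8 weeks, and both carried OT-I, a transgenic T cell receptor that recognises an ovalbumin peptide. Splenic naive CD8 T cells were cultured for 24 hours on plate-bound anti-CD3 at 1 µg/ml with soluble anti-CD28 at 1 µg/ml, which imitate antigen and costimulation, before total RNA was sequenced. Cd4 sequences drive the Cre recombinase, which acts in developing T cells, including those that become CD8 T cells. Separate mice for the libraries of a group are not stated in the labels, so the p-values cover only library-to-library spread.

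Libraries held 41311346 to 47851445 counts. Map3k14 had 50.7, 64.5 and 54.7 CPM (counts scaled to library size with TMM factors) in the KO libraries, against 53.6, 65.5 and 65.3 CPM in the WT libraries, and the groups overlapped (log2 fold -0.12, SE 0.11, edgeR adjusted p = 0.81). The count covers the whole gene and so cannot show the loss of a part of it, and directions below are between libraries as labelled. Xist, transcribed from the silenced X chromosome of female cells, had 27, 38 and 82938 counts in the KO libraries, against 92901, 22 and 90998 in the WT libraries, so both groups mixed the sexes and each held RNA of more than 1 animal. T cell markers summed to between 1402 and 1469 CPM in KO and between 1276 and 1429 CPM in WT libraries, and Cd4 to less than 1 CPM in all 6.

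The start regions of the genes were searched for the letters that a terminal oligopyrimidine tract would need. RefSeq promoters on GRCm38.p6, which span 250 bases before the annotated start and 50 bases after it, matched 60 of the 82 members. A run of at least 8 bases of C or T on the gene strand, touching the 30 bases on either side of the start, was in 43 of the 60 members (71.7%) and in 8240 of 27025 genes (30.5%). The windows printed here belong to members whose values are described below, and they show how such runs look at several annotated starts. Capitals mark the pyrimidine run, and each line is on the gene strand, 5′ to 3′, as DNA.
Rplp2, chr7:141447636-141447665, plus strand: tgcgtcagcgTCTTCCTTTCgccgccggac
Rps12, chr10:23787182-23787211, minus strand: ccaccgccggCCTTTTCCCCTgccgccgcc
Rpl38, chr11:114668568-114668597, plus strand: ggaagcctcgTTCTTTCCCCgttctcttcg
Rps6, chr4:86857349-86857378, minus strand: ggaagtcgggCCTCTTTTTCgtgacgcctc
Rps27, chr3:90213632-90213661, minus strand: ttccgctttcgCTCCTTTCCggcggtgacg
Rpl15, chr14:18270968-18270997, minus strand: gagaaagCCTTCTTCCTTTCCTCTggcggc
Rpl5, chr5:107900497-107900526, plus strand: gcctacagccaCTCTTTCTCacgtcgcttg
Rps27l, chr9:66946053-66946082, plus strand: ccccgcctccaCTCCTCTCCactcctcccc
The run began 5 bases before the annotated start in Rplp2, 2 before it in Rpl38 and in Rps27, 1 before it in Rps6, 4 before it in Rpl15 and 8 bases after it in Rps12. In Rpl5 and Rps27l it began 20 and 22 bases before the annotated start, which leaves the run outside the annotated mRNA. No run of this kind was found at the annotated starts of Rplp0, Rps19, Rpsa or Rpl41, which says only that these letters are not in the window searched.

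The letters CCGGAAG or their reverse complement CTTCCGG, the core that ETS family factors bind, were somewhere in the 300 bases of 25 of the 60 matched members (41.7%), and in 9.93% of all genes. TATAA, searched on the gene strand between 45 and 16 bases before the start, was in 4 of the 60 (6.67%) and in 4.67% of all genes. Of the windows printed, Rps27 comes from a promoter that holds TATAA. These matches describe letters in the reference genome and not factor binding in these cells.

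Ribosomal protein genes took 6.48%, 6.95% and 6.49% of all counts in KO replicates 4, 5 and 6, against 6.70%, 7.52% and 7.19% in WT replicates 1, 2 and 3. The means were 6.64% ± 0.266 in KO and 7.14% ± 0.411 in WT (SD, n = 3 each), a difference of -0.499 percentage points. The groups overlapped, because KO replicate 5 lay above WT replicate 1. Large subunit genes had 1.33, 1.32 and 1.34 times the counts of small subunit genes in the KO libraries, against 1.34, 1.31 and 1.31 times in the WT libraries. The balance between the subunits thus stayed within a narrow range that both groups shared. In bulk RNA, fewer cells of a type and less RNA per cell cannot be told apart.

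The genes moved together from library to library. Each gene's log2 CPM was set against its own mean over the 6 libraries, and the median of the 76 standard genes was -0.09, 0.00 and -0.09 in KO replicates 4, 5 and 6, against -0.03, 0.14 and 0.07 in WT replicates 1, 2 and 3. WT replicate 2 stood apart: all 76 genes were above their own mean there, and 72 of them had their highest value there. The lowest value of 34 genes was in KO replicate 4 and that of 41 genes in KO replicate 6. Libraries of 1 genotype also lay apart, since the median gene was 1.13-fold higher in WT replicate 2 than in WT replicate 1 (0.17 on the log2 scale) and 74 of 76 genes were higher. WT replicate 1 was below KO replicate 5 for 59 of the 76 genes.

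**Figure D1:**
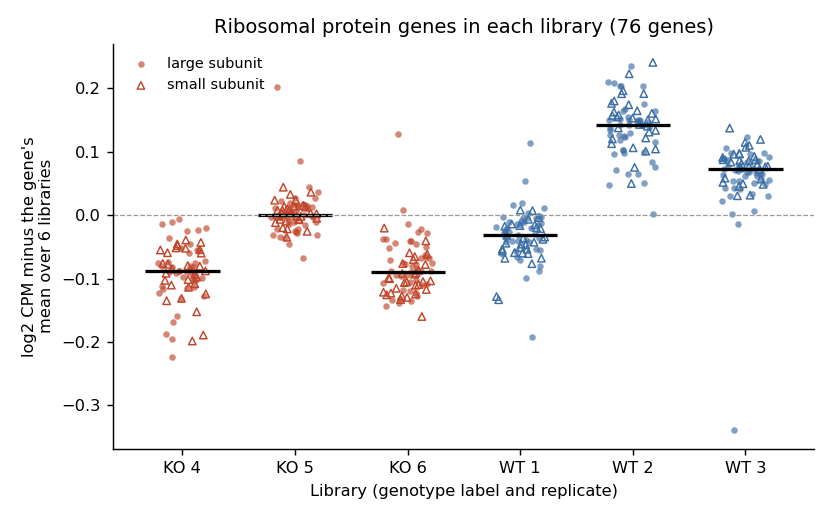
Each point is 1 of the 76 standard ribosomal protein genes (filled circles, large subunit; open triangles, small subunit), with its log2 CPM minus its own mean over the 6 libraries on the y axis and the library on the x axis, KO replicates on the left and WT replicates on the right, and a bar at the median. The points of a library lie close together: the median is lowest in KO replicates 4 and 6 (-0.09 each) and highest in WT replicate 2 (0.14), while KO replicate 5 (0.00) lies above WT replicate 1 (-0.03).

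Once the library's median was taken away, little was left for most genes. Rpl8 had an SD over the 6 libraries of 0.09 on the log2 scale, of which 0.01 remained around the library median, and Rps25 and Rpl27a were as tight (0.01 each). At the other end stood Rpl30 (0.24), Rpl24 (0.11), Rpl41 (0.10), Rps15a (0.08), Rps27 (0.08), Rpl15 (0.07) and Rpl3 (0.07), which had the largest SD around the library median. Such an SD also arises where a gene follows the pattern with a wider swing. Rps15a and Rps27 had total SDs of 0.16 each, with their highest value in WT replicate 2 and their lowest in KO replicate 4. Rpl24 rests on few counts, given below. Rpl41, Rps15a, Rpl15 and Rpl3 were chosen for naming after their values were seen. Rpl41 had 836.3, 837.2 and 829.9 CPM in KO libraries, against 873.9, 843.1 and 834.1 CPM in WT libraries. It encodes the smallest protein of the ribosome, and its level was nearly the same in every library while the other members moved, so its residual is large and its total SD small (0.03).

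Other gene lists also differed between libraries. A list of 20 mitosis genes, such as Mki67 and Cdk1, summed to 2259, 1904 and 2109 CPM in KO replicates 4, 5 and 6, against 2289, 1495 and 1543 CPM in WT replicates 1, 2 and 3, so the libraries with the highest ribosomal protein medians, WT replicates 2 and 3, had the lowest sums. The 4 B cell markers summed to 20.4, 23.4 and 30.1 CPM in KO libraries, against 18.8, 51.2 and 33.4 CPM in WT libraries, highest in WT replicate 2. The 5 macrophage and monocyte markers summed to 16.1, 8.66 and 14.5 CPM in KO libraries, against 8.40, 9.70 and 6.19 CPM in WT libraries. The 3 dendritic cell markers summed to 9.49, 5.84 and 11.0 CPM in KO libraries, against 6.06, 9.24 and 8.20 CPM in WT libraries, so their order did not follow the ribosomal protein medians. The B cell sum also was higher in KO replicate 6 than in KO replicate 5, where the ribosomal protein median was higher. Natural killer, erythroid and platelet markers stayed below 1 CPM. The part of cell division and of other cells in the ribosomal protein values was not tested.

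Set KO over WT, ribosomal protein genes leaned to lower values by a small amount, and 0 of them passed the test. Of the 82 members, 80 had enough counts to be tested; the exceptions were Rpl10l and Rpl3l. EdgeR's quasi-likelihood test with Benjamini-Hochberg adjustment over 15186 genes called 0 of the 80 at an adjusted p under 0.05, where 0.00659% of all genes were called, 1 gene in all. The smallest adjusted p of a member was 0.63. The median log2 fold of the 80 was -0.12, a fold of 0.918, with quartiles of -0.14 and -0.09, and the median of all tested genes was 0.01. The log2 fold was below 0 in 76 of the 80 members (95%) and in 47.6% of all tested genes. Because the members vary together, their shared sign is that of a few libraries and not of 80 separate measurements.

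Unadjusted p under 0.05 marked 10 members as lower in KO (12.5%), where 3.44% of all genes were so marked, and 1 member as higher, where 3.82% were. The KO and WT libraries did not overlap in 16 members that were lower in KO (20%), against 6.07% of all genes, and in 1 member that was higher, against 6.68%. The 10 were Rpl10a, Rpl27, Rpl28, Rpl31, Rpl35, Rpl36, Rpl38, Rplp1, Rps28 and Rps29. Among the 46 standard large subunit genes 45 had a log2 fold below 0, with a median of -0.12, and among the 30 standard small subunit genes all 30 did, with a median of -0.13. Without Rpl30 and Rpl24, the other 74 standard genes had 95% intervals that lay within 0.757-fold and 1.07-fold.

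**Figure D2:**
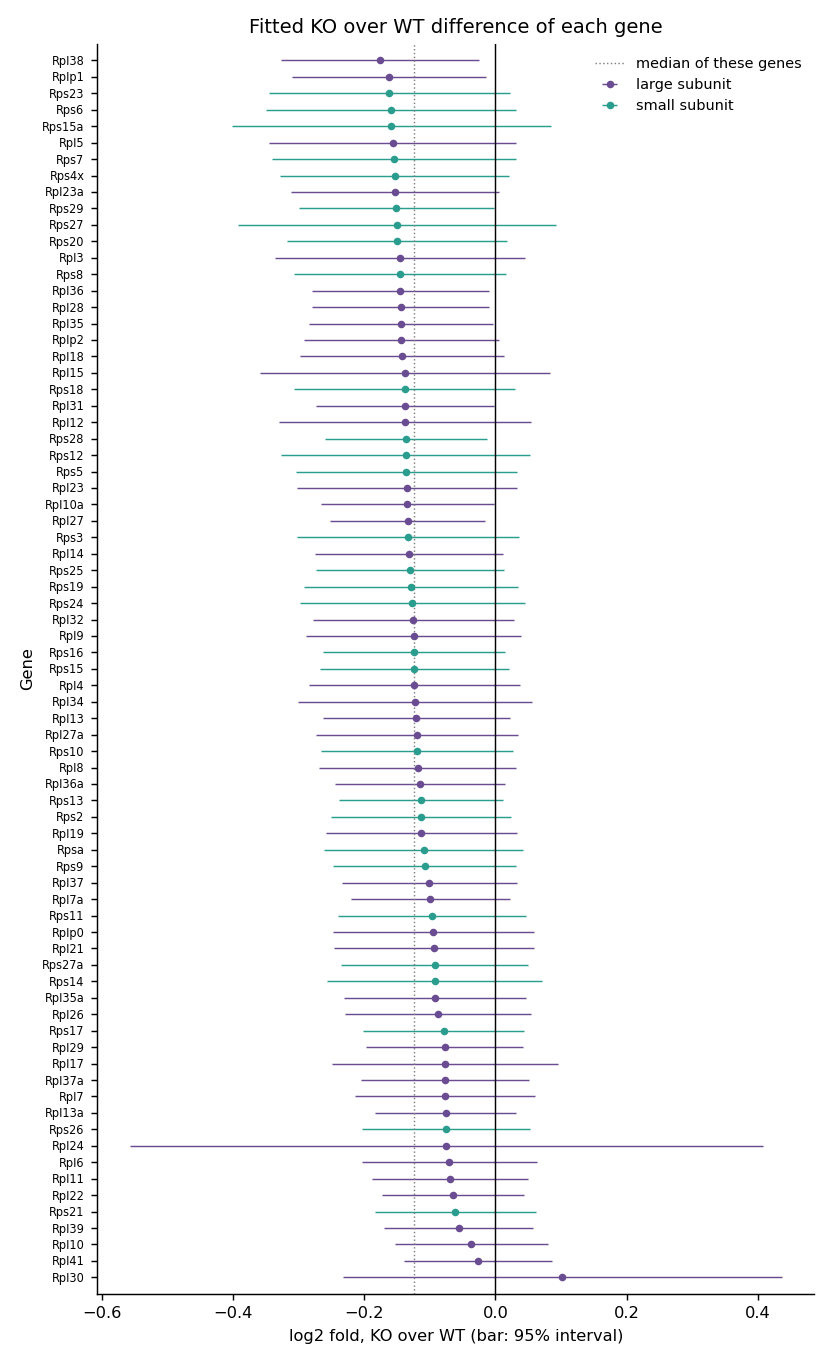
Each row is 1 of 75 standard ribosomal protein genes, coloured by subunit, its point the fitted log2 fold of KO over WT on the x axis and its bar the 95% interval, and the dotted line is the median of the genes. Nearly all points lie a little below 0, 65 of the 75 intervals include 0 and 10 lie below it, and Rpl30 is the gene above 0.

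The count of small p-values moved with single libraries, among the members and among all genes. Without WT replicate 1, 49 of 80 members had an unadjusted p under 0.05 and were lower in KO (61.3%, against 7.33% of all genes), the median log2 fold was -0.17, and 0 were called, with a smallest adjusted p of 0.15. The count was 0 without WT replicate 2 (1.6% of all genes), 0 without WT replicate 3 (1.58%) and 0 without KO replicate 6 (2.48%), with medians of -0.08, -0.11 and -0.10. It was 1 without KO replicate 4 (3.66% of all genes) and 11 without KO replicate 5 (2.59%), with medians of -0.11 and -0.15. DESeq2, run without the low-count filter, gave such a p to 19 members, with 0 called. Its share over all genes, 2.04%, is of 26265 genes, where the main fit tested 15186. The count was 4 with total counts only, 4 with length and GC trends removed, 7 with upper-quartile factors and 12 by limma-voom. For these 4 settings the share over all genes was not computed. With length and GC trends removed the members' median was -0.09. Relative to the median of all genes it was then -0.091, against -0.13 in the main fit. With a term for high or low Xist, chosen after seeing the data, 31 members had such a p (3.38% of all genes), the median was -0.15 and 0 were called.

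The stalk of the large subunit, which recruits elongation factors, holds Rplp0 and dimers of Rplp1 and Rplp2. Rplp1 had 1278, 1329 and 1248 CPM in KO libraries, against 1347, 1521 and 1447 CPM in WT libraries, and the groups did not overlap. The means were 1285 ± 40.9 CPM in KO and 1438 ± 87.7 CPM in WT (SD, n = 3 each), and the edgeR adjusted p of the log2 fold of -0.16 (SE 0.06) was 0.67. Its fold of 0.893 had a 95% interval from 0.806 to 0.990, which leaves out 1 before adjustment. Rplp2, with the pyrimidine run shown above at its start, had 946.6, 996.9 and 905.7 CPM in KO libraries, against 986.8, 1087 and 1074 CPM in WT libraries (log2 fold -0.14, edgeR adjusted p = 0.70). Rplp0 had 2681, 2753 and 2481 CPM in KO libraries, against 2668, 2921 and 2866 CPM in WT libraries (log2 fold -0.10, edgeR adjusted p = 0.75). For both of these, a KO library lay above WT replicate 1, so the groups overlapped.

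Rpl5 and Rpl11 enter the ribosome with 5S ribosomal RNA and, when free of the ribosome, bind Mdm2 and so stabilise p53. Rpl5 had 871.0, 937.3 and 857.2 CPM in KO libraries, against 891.9, 1079 and 1001 CPM in WT libraries (log2 fold -0.16, SE 0.08, edgeR adjusted p = 0.70). Rpl11 had 692.3, 717.2 and 696.2 CPM in KO libraries, against 713.7, 762.2 and 733.7 CPM in WT libraries (log2 fold -0.07, SE 0.05, edgeR adjusted p = 0.77). In both genes KO replicate 5 was above WT replicate 1 and below the other WT libraries.

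Around the tunnel through which the new protein leaves, the 8 genes listed had a median log2 fold of -0.12, all 8 below 0 and 0 called. Rpl39, a very small protein in the tunnel wall, had 232.2, 249.0 and 238.0 CPM in KO libraries, against 239.8, 252.9 and 255.0 CPM in WT libraries (log2 fold -0.06, edgeR adjusted p = 0.79). Rpl10, which joins the large subunit late and is X-linked, had 930.7, 946.6 and 906.1 CPM in KO libraries, against 930.5, 970.5 and 953.9 CPM in WT libraries (log2 fold -0.04, edgeR adjusted p = 0.87). The groups overlapped in both, and the values of each spanned less than those of most members.

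Rpl38, needed in mouse embryos for translation of several Hox mRNAs, had the smallest unadjusted p of a standard member. It had 278.5, 294.6 and 286.2 CPM in KO libraries, against 299.8, 350.4 and 321.0 CPM in WT libraries, so that every KO library was below every WT library. The means were 286.4 ± 8.08 CPM in KO and 323.7 ± 25.4 CPM in WT (SD, n = 3 each). The fold was 0.885 with a 95% interval from 0.797 to 0.983 (log2 fold -0.18, SE 0.06, edgeR adjusted p = 0.65).

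Rpl27 and Rps28 were similar in size and neither was called. Rpl27, of the large subunit, had 261.1, 264.7 and 269.0 CPM in KO libraries, against 276.7, 306.0 and 289.5 CPM in WT libraries (log2 fold -0.13, SE 0.05, edgeR adjusted p = 0.66). Rps28, at the mRNA exit of the small subunit, had 352.1, 357.0 and 337.6 CPM in KO libraries, against 364.7, 400.4 and 385.8 CPM in WT libraries (log2 fold -0.14, SE 0.05, edgeR adjusted p = 0.67). The groups did not overlap in either gene. Rpl22, whose loss in mice blocks development of T cells with an alpha-beta receptor, had 376.5, 374.8 and 372.3 CPM in KO libraries, against 376.8, 403.6 and 394.6 CPM in WT libraries. Its groups did not overlap, yet the gap between KO replicate 4 and WT replicate 1 was under 1 CPM (log2 fold -0.06, SE 0.05, edgeR adjusted p = 0.76).

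Rpl30 was the standard member with a log2 fold above 0 and also the least regular one. It had 348.2, 450.4 and 427.7 CPM in KO libraries, against 423.5, 409.7 and 309.4 CPM in WT libraries, with the lowest value in WT replicate 3, and the groups overlapped (log2 fold 0.10, SE 0.14, edgeR adjusted p = 0.88). Without WT replicate 3 its log2 fold was -0.03. Rpl30 shares exon bases with a gene on the other strand in GENCODE, as do other members such as Rpl35, Rpl5, Rpl23a and Rpl31. The strand setting of the count is not given, and the part of the overlap in the Rpl30 values was not tested.

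In the small subunit, Rps6 is the protein that S6 kinase phosphorylates downstream of mTORC1. It had 594.0, 653.6 and 593.9 CPM in KO libraries, against 614.0, 739.4 and 703.3 CPM in WT libraries (log2 fold -0.16, SE 0.08, edgeR adjusted p = 0.70). Rps19, the gene most often mutated in human Diamond-Blackfan anaemia, had 631.6, 651.9 and 597.2 CPM in KO libraries, against 629.7, 727.5 and 700.0 CPM in WT libraries (log2 fold -0.13, edgeR adjusted p = 0.71). In each, KO replicate 5 was above WT replicate 1. The 9 genes listed for that disease had a median log2 fold of -0.12, all 9 below 0 and 0 called.

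The 8 genes listed for the mRNA channel and decoding site had a median log2 fold of -0.12, all 8 below 0 and 0 called. Rps27a, made as a fusion with ubiquitin, had 753.5, 803.5 and 754.0 CPM in KO libraries, against 771.0, 855.8 and 838.2 CPM in WT libraries (log2 fold -0.09, edgeR adjusted p = 0.74). Rpsa, also known as a laminin receptor, had 2383, 2462 and 2294 CPM in KO libraries, against 2412, 2723 and 2569 CPM in WT libraries (log2 fold -0.11, edgeR adjusted p = 0.71). Both had KO replicate 5 above WT replicate 1.

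Rps4x, X-linked, had 1576, 1715 and 1566 CPM in KO libraries, against 1656, 1932 and 1817 CPM in WT libraries (log2 fold -0.15, SE 0.07, edgeR adjusted p = 0.70). Rps27, which binds zinc, had 532.1, 620.6 and 581.4 CPM in KO libraries, against 553.1, 717.0 and 654.7 CPM in WT libraries (log2 fold -0.15, SE 0.10, edgeR adjusted p = 0.75). Rps12 had 1253, 1359 and 1186 CPM in KO libraries, against 1264, 1477 and 1434 CPM in WT libraries (log2 fold -0.14, edgeR adjusted p = 0.72). The groups overlapped in all 3 genes, again with KO replicate 5 above WT replicate 1. In Rps27, KO replicate 6 was above WT replicate 1 as well.

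Second copies stood far below their partners in level, and none was called. Rps4l, a transcribed processed pseudogene in GENCODE, had 1.57, 1.77 and 1.03 CPM in KO libraries (75, 78 and 43 counts), against 0.691, 0.919 and 0.971 CPM in WT libraries (31, 42 and 45 counts). The groups did not overlap, though before scaling KO replicate 6 had 2 counts fewer than WT replicate 3. Its fold was 1.69 with a 95% interval from 1.11 to 2.58 (log2 fold 0.76, SE 0.26, edgeR adjusted p = 0.63), and the log2 fold was between 0.60 and 0.95 with any 1 library left out. Its sequence was not compared with that of Rps4x, and how reads that match several places were counted is not given, so its counts are uncertain.

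Rps27l, a p53-inducible copy of Rps27, had 65.8, 60.8 and 59.5 CPM in KO libraries, against 67.9, 59.8 and 67.2 CPM in WT libraries (log2 fold -0.07, SE 0.07, edgeR adjusted p = 0.82). Rpl39l, best known from the testis, had 0.606, 1.25 and 0.265 CPM in KO libraries, against 0.334, 0.416 and 0.928 CPM in WT libraries (log2 fold 0.34, SE 0.60, edgeR adjusted p = 0.90). Without KO replicate 5 the log2 fold of Rpl39l was -0.34. Rpl6l, a processed pseudogene, had 3.39, 3.73 and 3.87 CPM in KO libraries, against 3.34, 3.22 and 3.95 CPM in WT libraries (log2 fold 0.06, edgeR adjusted p = 0.92). The groups overlapped in all 3. Rpl10l, a testis copy of Rpl10, had 0 counts in every library, and Rpl3l, known from heart and skeletal muscle, had at most 2 counts in any library; the floor of 3 counts corresponds to between 0.0627 and 0.0722 CPM per library.

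Levels between genes were compared per length, as CPM per kb of the shortest principal transcript in GENCODE M21. Of the 76 standard genes, 74 lay between 200 and 3000 CPM per kb, and the median of the 76 was 1133 CPM per kb. Rplp1 was highest, at 2575 CPM per kb in KO and 2882 CPM per kb in WT, followed by Rps12 at 2562 CPM per kb in KO and 2818 CPM per kb in WT. Both mRNAs are short. The second copies ranged downward from Rps27l at 127 CPM per kb over all libraries, where Rps27 had 1768. Rpl6l had 4.1 where Rpl6 had 868, Rps4l had 1.5 where Rps4x had 1754, and Rpl39l had 1.2 where Rpl39 had 399.5 CPM per kb.

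**Figure D3:**
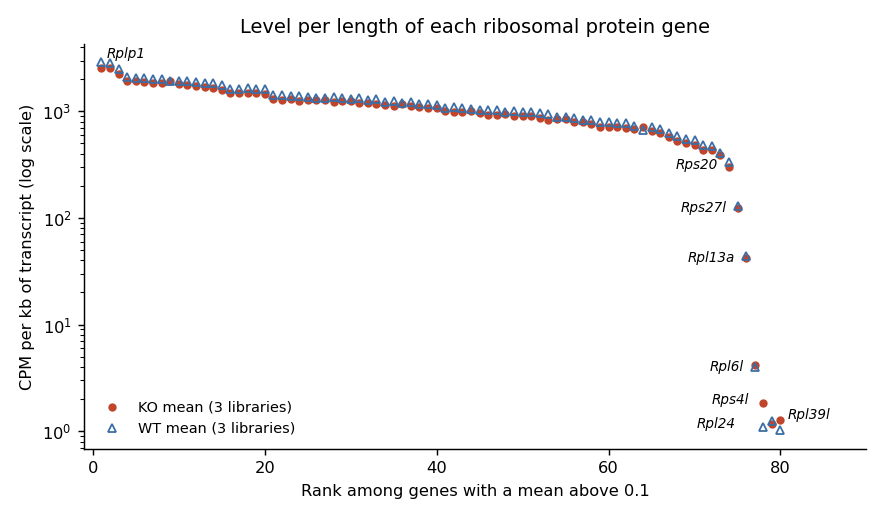
Mean level per length on a log axis against rank, for the 80 ribosomal protein genes with a mean above 0.1 CPM per kb, with filled circles for the mean of the 3 KO libraries and open triangles for the mean of the 3 WT libraries. Most genes fall between 200 and 3000 CPM per kb, with KO a little below WT. The labelled genes at the lower end are 4 second copies and the standard members Rps20, Rpl13a and Rpl24.

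Rpl24 and Rpl13a were the standard genes outside that range, at 1.2 and 43.2 CPM per kb over all libraries. Rpl24 encodes a standard large subunit protein, yet its row had 34, 38 and 34 counts in KO libraries, against 32, 43 and 40 counts in WT libraries. In GENCODE M21 its exons share 484 of 1030 bases with Gm28037, a transcript on the same strand. Rpl13a, chosen for naming after its values were seen, shares 621 of 2114 exon bases with the protein-coding Gm45713, also on the same strand, and averaged 44.0 ± 0.988 CPM in KO libraries and 46.4 ± 0.772 CPM in WT libraries (SD, n = 3 each). Rps10 stood at 1127 CPM per kb and overlaps Gm15420 on the other strand and the protein-coding RPS10-NUDT3 on the same strand. The larger of these overlaps is 475 of 2311 exon bases, and which of the genes it belongs to was not separated. The part of the overlaps in the low counts was not tested, and the levels of Rpl24 and Rpl13a are therefore uncertain.

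Processed copies of ribosomal protein genes are scattered over the mouse genome, and some rows of the table belong to them. The table has 274 rows named as a member followed by -ps, of which 214 had a count and 12 reached 5 CPM in some library. Together they held between 0.273% and 0.430% as many counts as the members. Of the 12, 2 varied at least 5-fold between libraries, Rpl15-ps2 and Rpl3-ps1. Rpl15-ps2 had 1973, 888 and 796 counts in KO libraries, against 1858, 11 and 938 counts in WT libraries, so that WT replicate 2 was nearly without it. Rpl15 itself had 389.5, 447.8 and 435.2 CPM in KO libraries, against 414.4, 522.4 and 464.1 CPM in WT libraries, lowest in the 2 libraries where its copy was highest and highest where its copy was lowest. The 2 rows summed to 430.7, 468.0 and 454.4 CPM in KO libraries, against 455.8, 522.6 and 484.3 CPM in WT libraries. This sum was still highest in WT replicate 2 and lowest in KO replicate 4. Of the 76 standard genes, 72 were highest in WT replicate 2 and 34 lowest in KO replicate 4.

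Rpl3-ps1 was high in 1 library only, KO replicate 4, with 72.6, 8.66 and 7.75 CPM in KO libraries, against 8.66, 9.37 and 8.55 CPM in WT libraries. Rpl3 was lowest in that same library, with 1367, 1626 and 1566 CPM in KO libraries, against 1583, 1777 and 1685 CPM in WT libraries. With Rpl3-ps1 added, Rpl3 came to 1439, 1634 and 1574 CPM in KO libraries, against 1592, 1786 and 1693 CPM in WT libraries. KO replicate 4 was thus still the lowest. Rps3a1, outside the symbol rule, had 1089, 781.5 and 1102 CPM in KO libraries, against 759.7, 1288 and 1225 CPM in WT libraries. The row of its copy Rps3a3 ran the opposite way, with 3.80, 210.3 and 4.36 CPM in KO libraries, against 194.1, 5.56 and 5.91 CPM in WT libraries. KO replicate 5 and WT replicate 1 are thus the libraries high in the copy and low in Rps3a1. With Rps3a2 added as well, the sum was 1097, 1017 and 1112 CPM in KO libraries, against 977.5, 1299 and 1237 CPM in WT libraries.

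The row of Rps3a3 was high in 1 library of each genotype, that of Rpl3-ps1 in 1 KO library, and that of Rpl15-ps2 was nearly empty in 1 WT library. Rps3a1 had a wider SE than any standard member (log2 fold -0.14, SE 0.22, edgeR adjusted p = 0.89). Adding the -ps rows to their genes, an alternative chosen after seeing the data, left the median log2 fold of the members at -0.12 with 0 called, and gave Rpl15 a log2 fold of -0.11 and Rpl3 one of -0.13, in place of -0.14 and -0.15. These 3 pairs were chosen for naming after their values were seen. How reads that match both rows of a pair were counted is not given, so the values of both rows are uncertain.

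**Figure D4:**
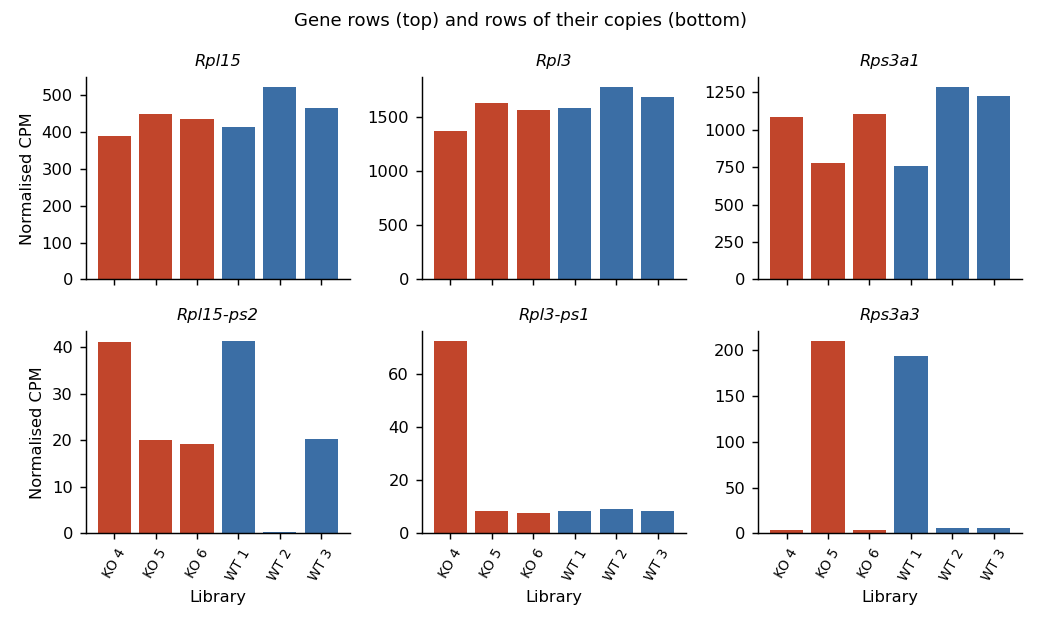
Normalised CPM on the y axis of each of the 6 libraries on the x axis, KO on the left and WT on the right, for Rpl15, Rpl3 and Rps3a1 in the top row and for their copies Rpl15-ps2, Rpl3-ps1 and Rps3a3 in the bottom row. Rps3a3 is high in KO replicate 5 (210.3 CPM) and WT replicate 1 (194.1 CPM), where Rps3a1 is low, Rpl3-ps1 is high in KO replicate 4 (72.6 CPM), and Rpl15-ps2 is nearly absent from WT replicate 2.

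Other parts of the translation machinery were set beside these genes. The 7 ribosomal proteins outside the symbol rule had a median log2 fold of -0.14 and all 7 were below 0. Of these, Rpl36al had the smallest p, at 120.0 ± 2.40 CPM in KO and 129.5 ± 3.28 CPM in WT (log2 fold -0.11, edgeR adjusted p = 0.67). Rack1, the scaffold protein at the head of the small subunit, had 1757, 1879 and 1732 CPM in KO libraries, against 1832, 2087 and 1989 CPM in WT libraries (log2 fold -0.14, edgeR adjusted p = 0.70). Fau, which encodes a ribosomal protein fused to a relative of ubiquitin and was chosen once its values were known, had a log2 fold of -0.17 by edgeR (adjusted p = 0.70).

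The 8 elongation factor genes had a median log2 fold of -0.10, all 8 below 0. Eef2k, the kinase that inhibits elongation factor eEF2, had 39.3, 36.9 and 39.8 CPM in KO libraries, against 45.1, 49.1 and 48.3 CPM in WT libraries, and the groups did not overlap. The SE of its log2 fold of -0.30 was 0.06, and its adjusted p was 0.53 by edgeR but 0.024 by DESeq2. The 35 initiation factor genes had a median of -0.04 with 27 below 0, and Eif3c, a core subunit of eIF3, had the smallest p among them (log2 fold -0.19, edgeR adjusted p = 0.63). The median was also -0.04 in 22 other genes whose mRNAs carry a terminal oligopyrimidine tract, with 19 below 0. The lists overlap, since Rack1 is among these 22 and among the ribosomal proteins outside the symbol rule. The lowest log2 fold, -0.28, was the same in the 22 and in the initiation factors. The members' median of -0.12 was lower than that of these 22 genes. It was near the medians of the ribosomal proteins outside the symbol rule (-0.14) and of the elongation factors (-0.10). The shift was therefore not particular to the members, and these differences between lists were not tested.

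Ribosome production genes lay between. Of 24 assembly and export genes 21 were below 0, with a median log2 fold of -0.07, and Nob1, the nuclease that finishes small subunit RNA, had 93.3 ± 2.01 CPM in KO and 104.3 ± 1.13 CPM in WT (log2 fold -0.16, edgeR adjusted p = 0.60). Of 27 genes for RNA polymerase I and ribosomal RNA processing 25 were below 0, with a median of -0.06, and Nop14, an early small subunit factor, was at -0.12 on the log2 scale (edgeR adjusted p = 0.70). Among 14 regulators of these mRNAs and of mTORC1, 9 were below 0, with a median of -0.05. Akt1s1, a subunit of mTORC1 that restrains it, had 36.2 ± 0.673 CPM in KO and 41.2 ± 0.885 CPM in WT (log2 fold -0.19, edgeR adjusted p = 0.60). Eif4ebp1, the mTORC1 target that blocks eIF4E, was named after its values were seen, with 139.7, 135.7 and 139.6 CPM in KO libraries, against 150.1, 193.6 and 179.8 CPM in WT libraries. The SE of its log2 fold of -0.34 was 0.09, and the edgeR adjusted p was 0.60 with all libraries and 0.031 without WT replicate 1.

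Mitochondrial ribosomal proteins, which build a separate ribosome inside mitochondria, had a median log2 fold of -0.02 over 77 tested genes, with 50 below 0 and 0 called. Mrps18b had the smallest p among them (log2 fold -0.12, edgeR adjusted p = 0.68). With all 6 libraries, none of the lists named here had a called gene by edgeR. The 20 mitosis genes lay on the other side, with a median of 0.23, 0 below 0 and 0 called, and Kif11, a spindle motor, had the smallest p (log2 fold 0.32, edgeR adjusted p = 0.71).

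**Figure D5:**
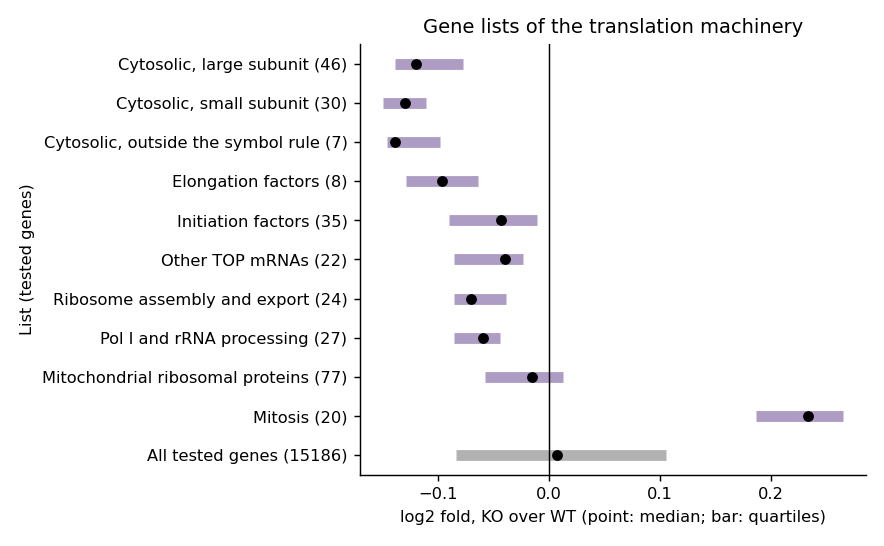
Median log2 fold of KO over WT (point) with quartiles (bar) on the x axis, for lists of the translation machinery, the mitosis list and all tested genes on the y axis, with the number of tested genes in brackets. Ribosomal proteins of either subunit lie near -0.12, initiation factors near -0.04 and mitochondrial ribosomal proteins near -0.02, mitosis genes near 0.23 and all tested genes near 0.01.

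Scaling by RLE factors, by upper-quartile factors, by total counts or without the members left 76 of the 80 members below 0 and 4 above it. Scaling to the summed counts of the members, chosen after seeing the data, centres them by construction: their median was -0.0041 and that of all genes 0.12 on the log2 scale, so the signs of single members under it carry no information. A change of scaling moves the log2 folds of all genes by about the same amount. The members' median relative to that of all genes was therefore -0.13 under either kind by construction, which adds no support.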

How the data were processed

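RNA of 3 KO and 3 WT libraries was sequenced. The authors deposited unnormalised counts, whole reads summed per gene symbol, in 1 table. HTSeq 0.9.1, DESeq2 and mm10 are named without a role, per the submitters' processing notes. Not given in the sources used here are the aligner, the annotation, the strand setting and the treatment of reads that match several places. Depth was 41311346 to 47851445 counts per library, and 0 columns were left unused. Every pair of libraries differed beyond sampling noise (mean chi-square per gene 21.2 to 58.0), so none was counted as a duplicate.

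The deposited counts were fitted in R 4.3.3 by the robust quasi-likelihood method of edgeR 4.0.16, after filterByExpr and with TMM factors, and an adjusted p under 0.05 over 15186 genes was a call. Log2 folds are KO over WT. The SE comes from the fold and the F statistic, and intervals are at the 95% level. A floor is 3 counts, and it covers no error besides counting. CPM are counts scaled with TMM factors. Exon overlaps, gene types and transcript lengths come from GENCODE M21 (GRCm38, the mm10 assembly), and promoters from RefSeq on GRCm38.p6.

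The members and lists were chosen with earlier results of these data known. The lists are hand-written from the known roles of the genes. Genes were named by a rule: 15 members by role, every member ending in l, the 5 smallest p, the 3 highest and 3 lowest log2 folds, the 2 highest and 2 lowest levels per kb, and the smallest p of each other list. A gene that the rule takes is not reported here. Others are said to have been named after their values were seen.

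Alternatives were RLE and upper-quartile factors, total counts, scaling without the members, limma-voom (limma 3.58.1), DESeq2 1.42.0, no count filter, a filter of 1 CPM in 3 libraries, removal of length and GC trends (97.1% of genes had both), an adjusted p under 0.01 and each library left out. Added after seeing the data were scaling to the members, adding -ps rows and a term for Xist. Counts of 15186 genes were simulated with 200 changed. EdgeR called 68.7%, 83.6% and 98.5% of genes changed 1.5-fold, 2-fold and 4-fold, with 14 false calls. DESeq2 called 74.6%, 89.6% and 98.5% of them, with 46 false calls. Genes were drawn independently of each other, and no change below 1.5-fold was simulated. These rates therefore do not cover a smaller shift that the members share.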

Additional observations from a re-analysis of the deposited data

How the results depend on the processing

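No paired analysis was possible because KO and WT libraries have 0 replicate numbers in common. Members called stayed at 0 under every alternative run, and the median log2 fold of the members stayed below 0. Over the whole table, called genes numbered 1 by edgeR, 10 with no low-count filter, 96 by DESeq2, 3 when scaled to the members, and between 1 and 119 with 1 library left out, the highest without WT replicate 1. The median of the members was -0.0041 when scaled to the members and between -0.17 and -0.08 with 1 library left out, where the difference in their share of counts ran between -0.717 and -0.309 percentage points.

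Of 777 values for 41 named genes, 757 kept their direction and side of the threshold, 18 changed sign (12 of them under the scaling to the members) and 2 crossed the threshold, Eef2k by DESeq2 and Eif4ebp1 without WT replicate 1. None that changed sign was called. Rpl41 was 0.0155 with length and GC trends removed. Scaling to the members moves all genes up by about 0.12, so folds nearer to 0 change sign by construction, which says nothing about these genes: log2 folds were 0.0227 for Rplp0, 0.0484 for Rpl11, 0.0540 for Rpl22, 0.0806 for Rpl10, 0.0610 for Rpl39, 0.0254 for Rps27a, 0.0093 for Rpsa, 0.0465 for Rps27l, 0.0460 for Rpl24, 0.0075 for Rpl36al, 0.0413 for Rpl13a and 0.0881 for Rpl41. With 1 library left out, Rpl24 ran from -0.18 to 0.0153, Rpl30 from -0.0274 to 0.21, Rpl39l from -0.34 to 0.91 and Rps3a1 from -0.34 to 0.0059. The cause of these changes was not tested. Rps4l, Rpl39l and Rpl24 had under 100 counts in each library.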
